A study of Homo sapiens with 8 samples.

Results

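The genes described here encode the transforming growth factor beta (TGF-beta) and bone morphogenetic protein (BMP) pathway: its ligands, the proteins that hold ligands in the matrix, receptors, SMAD transducers, extracellular antagonists, nuclear corepressors and classic target genes. They were chosen as a list of 56 gene symbols and matched to the symbol column of the deposited count table. Of these, 55 were found among the 30434 genes of the table. BMP2 was not analysed here.

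RNA sequencing was done in SKBR3 cells, an established human breast cancer line with ERBB2 (HER2) amplification. The 4 control libraries carry the genotype label WT, and the labels do not say whether those cells received a control vector. The 4 FOXA1 knockdown libraries come from a stable line made with lentiviruses carrying 3 separate short hairpin RNAs against FOXA1, a pioneer transcription factor of luminal breast cells. Whether the hairpins were combined, and whether the line is 1 clone, is not stated. All cells grew in serum-containing DMEM with GlutaMAX, and fetal bovine serum itself carries TGF-beta family ligands. The labels do not say that replicates were separate cultures, so p-values measure only the spread between these libraries, which may be technical.

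TGF-beta, activin and BMP ligands are secreted dimers that bring together type II and type I receptor kinases. The type I kinase then phosphorylates receptor SMADs, SMAD2 and SMAD3 on the TGF-beta and activin side and SMAD1, SMAD5 and SMAD9 on the BMP side, which enter the nucleus with SMAD4. In mammary epithelium TGF-beta is known for growth arrest in normal cells and for epithelial plasticity in tumour cells, and the ID genes are standard readouts of BMP signalling.

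Library totals ran from 19087878 to 23786684 counts, so that 3 counts equalled 0.123 to 0.153 CPM (the count relative to the scaled library total). FOXA1 itself fell from 192 ± 1.65 to 3.96 ± 0.340 CPM (SD, n = 4 each), in the direction of the labels. Among controls, replicate 3 was the odd library: its pairs had a chi-square over degrees of freedom of 4.81 to 6.21, the remaining control pairs 2.16 to 2.38 and knockdown pairs 2.87 to 4.02. No pair agreed within sampling noise. All 7 luminal markers were above 3 counts in every library, with summed levels of 16976 to 18930.1 CPM in controls and 11459 to 12356 CPM in knockdown. Within that sum ERBB2 (7308 to 1340.1 CPM), KRT19 (2645 to 723 CPM) and GRB7 (363 to 125 CPM) fell, while KRT8 (4519 to 5619 CPM), KRT18 (2312 to 3457 CPM), EPCAM (179 to 226 CPM) and CLDN4 (455 to 481 CPM) rose. Summed fibroblast markers (6 of 7 in the table) ran from 5.27 to 6.98 CPM in controls and from 10.8 to 12 CPM in knockdown, with mean levels of COL1A2, DCN and PDGFRA at or under 0.0791 CPM in both groups, COL3A1 (0.0222 to 4.32 CPM) and PDGFRB (0.410 to 2.83 CPM) higher, and COL1A1, most of the control sum, lower (5.38 to 4.33 CPM). Basal markers summed to 2.24 to 2.99 and 8.80 to 10.2 CPM, and of these TP63 rose (0.147 to 7.86 CPM), ACTA2 fell (1.33 to 0.0674 CPM), KRT5 was not called (1.14 and 1.31 CPM) and KRT14 was under the filter (0.0232 and 0.262 CPM). Endothelial markers (3 of 3 in the table) summed to 20.7 to 22.1 and 19.7 to 22.4 CPM, with CDH5 higher (16.1 to 20.1 CPM), VWF lower (5.22 to 0.845 CPM) and PECAM1 near 0 (0.150 and 0.0820 CPM). Leukocyte markers (4 of 5) summed to 1.14 to 1.77 and 1.34 to 1.80 CPM, with CD14 higher (0.181 to 0.533 CPM), LYZ not called (0.775 and 0.758 CPM) and PTPRC near 0 (0.0576 and 0.0205 CPM). The part of these markers in the results below was not tested. A bulk library cannot tell fewer expressing cells from less RNA per cell.

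The study was set up to examine what FOXA1 does to pathways tied to HER2, and control was compared here with knockdown. Of the 55 genes, 50 could be tested after the low-count filter, and 45 of them were called at an adjusted p under 0.05, where 77.1% of all 16430 tested genes were called. They divided into 22 higher (39.4% of all tested genes were higher) and 23 lower (37.7%). A called change of at least 2-fold was seen in 30 of the 50 (60.0%), where 28.3% of all tested genes had one, with 14 higher and 16 lower against 14.9% and 13.4%. The groups did not overlap for 42 genes, against 72.0% of all tested genes. The median log2 fold change of the 50 was -0.09, beside 0.02 over all tested genes, and the median size of change was 1.44, beside 0.51. Of the 50, 38 reached the filter's level in every library of both groups, 5 only in controls, 5 only in knockdown and 2 in neither group throughout. Genes that pass through one group alone had to differ, so the counts over tested genes are descriptive. Among the 38 genes present in both groups, 35 were called and 20 had a called change of at least 2-fold. Shares over all genes present in both groups were not computed, so these counts are descriptive as well.

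**Figure D1:**
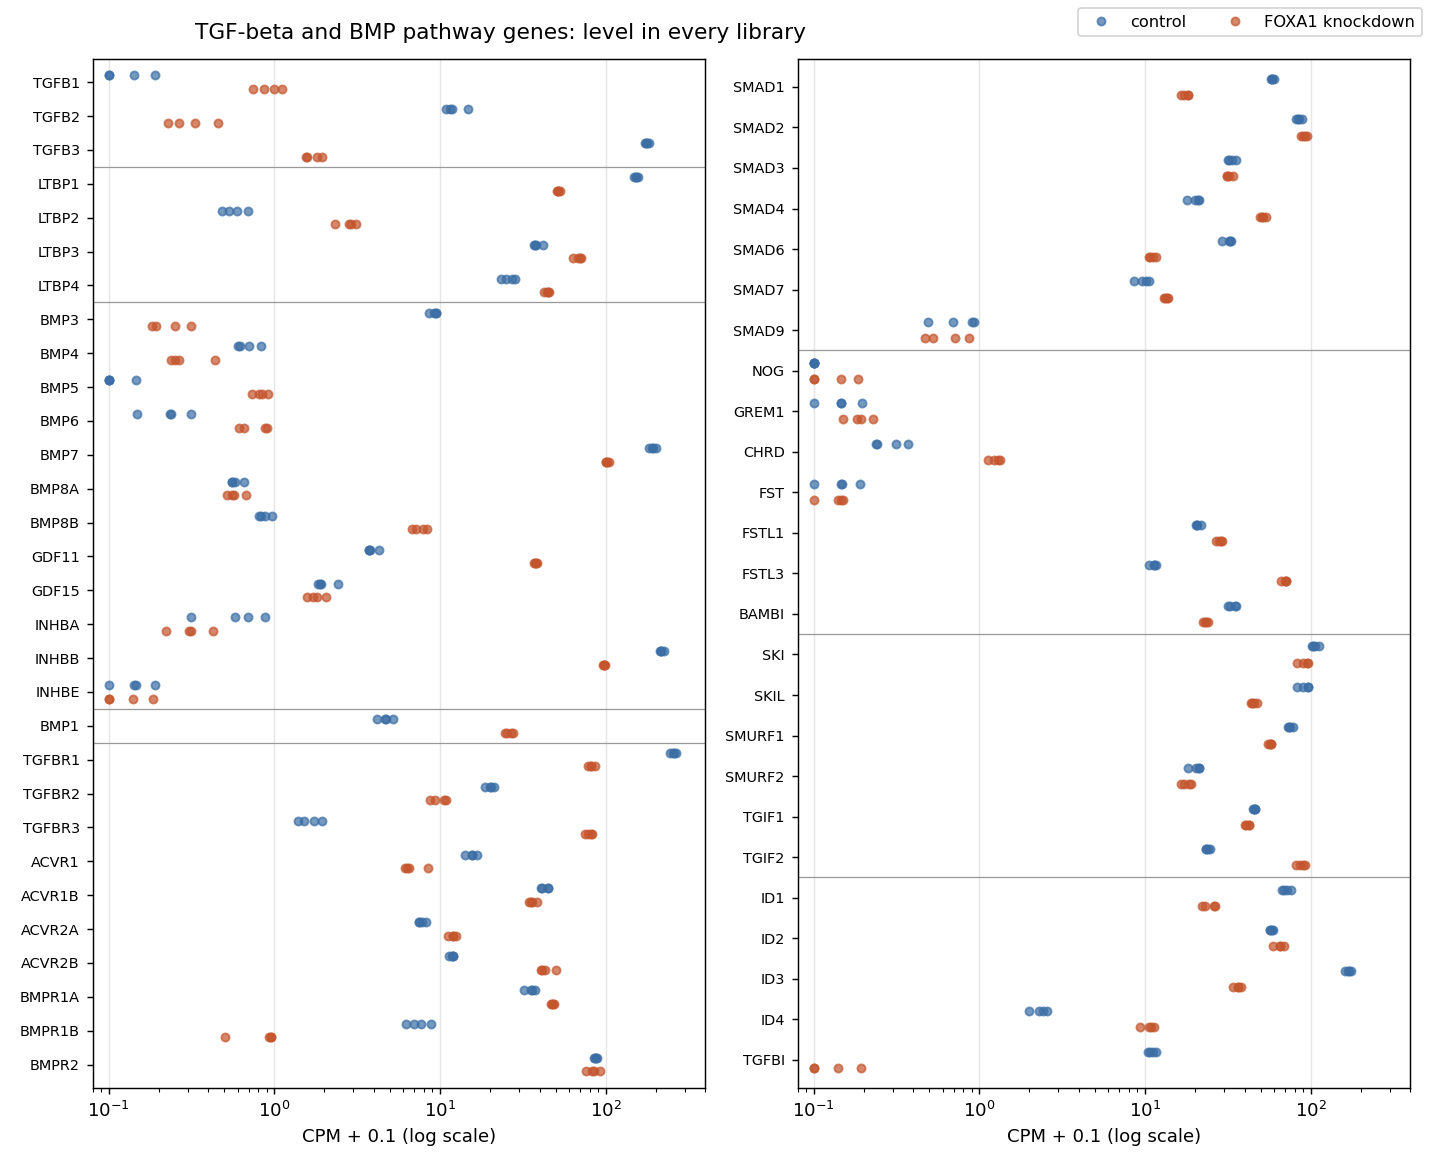
Level of each of the 55 genes in each of the 8 libraries, as CPM + 0.1 on a log axis, with 1 point per library (blue control, orange FOXA1 knockdown) and grey lines between functional classes. TGFB2, TGFB3, BMP3 and TGFBI lie far to the left in knockdown, TGFBR3 and GDF11 far to the right, and the points of BMPR2, SMAD3 and SMAD9 overlap between groups.

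Among the TGF-beta ligands, TGFB3 and TGFB2 fell to 0.917% and 1.82% of their control levels, and TGFB1 rose from a few reads. TGFB3 (chromosome 14, 75958099 to 75982991, minus strand, GENCODE 29 on GRCh38), the main TGF-beta isoform in control cells, stood at 183, 174, 177 and 172 CPM in control replicates 1 to 4 and at 1.45, 1.84, 1.48 and 1.71 CPM in knockdown replicates 1 to 4. Every knockdown library lay below every control, a 109-fold fall (log2 fold change -6.76, SE 0.085, adjusted p = 2.61e-30). TGFB2 (chromosome 1, 218346235 to 218444619) read 11.7, 11.4, 10.7 and 14.6 CPM in controls and 0.128, 0.164, 0.356 and 0.231 CPM in knockdown, again with no overlap (log2 fold change -5.79, SE 0.31, adjusted p = 3.36e-19). The 50 tested genes nearest to each on the chromosome had median log2 fold changes of 0.03 and 0.02. TGFB2 shares 1371 bp with TGFB2-OT1 on the same strand (7.88 counts on average), of the order of its own 3 to 7 counts in knockdown. TGFB1, the isoform that dominates in many tissues, had 0, 2, 0 and 1 counts in controls and 21, 25, 15 and 14 counts in knockdown. It rose, but to only 0.832 ± 0.162 CPM (SD, n = 4), a ratio of summed counts of 24.7 with an exact 95% binomial interval of 8.14 to 122 that covers counting error only. Its fitted log2 fold change (4.41) was 5.34 without control replicate 2. TGFB1 shares 215 bp of exon with HNRNPUL1 on the opposite strand, which averaged 7746 counts per library, and the counting is not stated to use strand, so its reads are uncertain.

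Per kilobase of transcript, the 3 ligands together came to 71.2 to 75 CPM per kb in controls and 0.921 to 1.13 CPM per kb in knockdown. TGFB3 made up 96.7% of that per-length sum in controls and 65.1% in knockdown, so the order in controls was TGFB3, TGFB2, TGFB1. TGFB2 and TGFB1 changed places in knockdown, at 0.0435 ± 0.0199 and 0.301 ± 0.0587 CPM per kb (SD, n = 4 each). The promoter of TGFB3, the ligand with the steepest fall, is shown from 250 bases before to 50 bases after the RefSeq start (chr14:75982962-75983261, minus strand, GRCh38.p14). RefSeq lists 2 starts for the gene, and the one nearest the GENCODE gene start is given.
TGFB3: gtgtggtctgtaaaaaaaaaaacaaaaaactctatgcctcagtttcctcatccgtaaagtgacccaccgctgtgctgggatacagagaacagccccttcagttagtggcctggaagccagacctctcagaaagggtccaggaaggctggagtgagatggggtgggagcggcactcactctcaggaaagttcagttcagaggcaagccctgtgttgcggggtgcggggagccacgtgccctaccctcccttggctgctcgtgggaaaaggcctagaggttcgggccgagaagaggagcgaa

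Latent TGF-beta binding proteins tether the inactive ligand to the extracellular matrix. All 4 were called, LTBP1 lower and LTBP2, LTBP3 and LTBP4 higher, where 77.1% of all tested genes were called. LTBP1 was measured at 149, 156, 152 and 152 CPM in controls and at 52.8, 51.2, 51.0 and 51.5 CPM in knockdown, with no overlap (log2 fold change -1.56, SE 0.018). LTBP3 rose from 38.4 ± 2.29 to 67.9 ± 3.31 CPM (log2 fold change 0.82) and LTBP4 from 25.8 ± 2.26 to 44.2 ± 1.16 CPM (log2 fold change 0.78; SD, n = 4 each). LTBP2 had 13, 11, 8 and 10 counts in controls and 66, 54, 59 and 59 counts in knockdown, a rise without overlap (log2 fold change 2.48). Per kilobase, the class summed to 37.0 to 39.1 CPM in controls and 31.1 to 33.4 CPM in knockdown, and the ranges did not overlap. Its leading member was LTBP1 in controls (63.5% of the per-length sum) and LTBP3 in knockdown (47.0%).

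BMP, GDF and activin ligands changed in both directions: of 10 tested genes, 4 rose, 4 fell and 2 were not called. This was beside 39.4% higher and 37.7% lower over all tested genes. The abundant ones fell. BMP7, a BMP that signals through type I receptors of the BMP class, was at 189, 183, 200.5 and 194 CPM in controls and 99.9, 104, 100.2 and 102 CPM in knockdown (log2 fold change -0.92, SE 0.030, adjusted p = 1.25e-17). INHBB, the beta B chain of activins and inhibins, was at 215, 213, 225 and 214 CPM in controls and 97.8, 97.7, 96.8 and 99.5 CPM in knockdown (log2 fold change -1.15, SE 0.020). All knockdown libraries of both genes were below all controls, at 52.8% and 45.2% of the control means. BMP3, which is known to act against other BMPs, had 204, 200, 179 and 217 counts in controls and 5, 2, 3 and 2 counts in knockdown, leaving 1.49% of the control CPM (log2 fold change -6.02, SE 0.28).

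Among the ligands that rose, GDF11, a ligand of the activin-type receptors, read 3.62, 4.18, 3.70 and 3.62 CPM in controls and 37.4, 38.3, 37.0 and 38 CPM in knockdown. The rise was 9.97-fold, with complete separation of the groups (log2 fold change 3.32, SE 0.051, adjusted p = 1.23e-23). GDF11 shares 386 bp with SARNP on the opposite strand (1100 counts on average), which leaves part of its reads uncertain. BMP8B rose from 0.733, 0.863, 0.712 and 0.776 CPM to 6.63, 8.23, 7.08 and 7.82 CPM (log2 fold change 3.26, SE 0.091), while BMP8A, its close paralogue, had 10 to 13 counts in controls and 9 to 14 in knockdown and was not called. Reads of these copies may be divided between them, so both values are uncertain. On the opposite strand BMP8B also shares 80 bp with PPIE (847 counts on average) and BMP8A 267 bp with PPIEL (10.5 counts). BMP5 had 1, 0, 0 and 0 counts in controls and 15, 20, 14 and 16 in knockdown, a ratio of summed counts of 64.2 with an exact 95% interval of 11.1 to 2575. BMP6 had 3, 3, 1 and 5 counts against 19, 19, 11 and 11. Both rose without overlap but stayed under 1 CPM. The fitted log2 fold change of BMP5 (5.43) was 7.03 without control replicate 1. BMP4 fell from 11, 16, 11 and 14 counts to 8, 4, 3 and 3 counts (log2 fold change -1.52), again without overlap. GDF15, a stress-induced family member, was not called (1.91 ± 0.280 and 1.69 ± 0.201 CPM, SD, n = 4 each). INHBA (5 to 17 and 3 to 7 counts) and INHBE (at most 2 counts) were below the filter. BMP1, which despite its name is a protease that cleaves procollagens and BMP antagonists, rose from 4.53, 4.09, 5.08 and 4.65 CPM to 27.4, 26.7, 24.6 and 25.1 CPM, with no overlap (log2 fold change 2.50, SE 0.074).

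**Figure D2:**
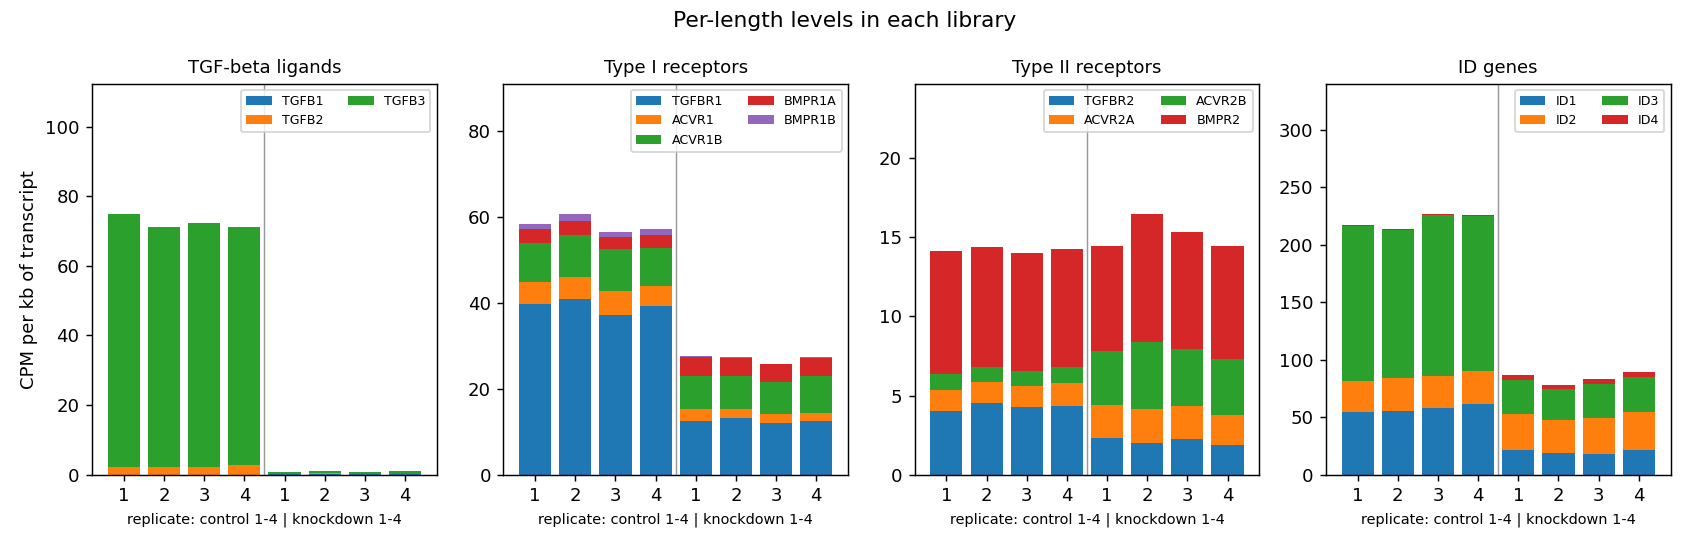
CPM per kb of transcript in each library (replicates 1 to 4 of control, then of knockdown), stacked by gene for TGF-beta ligands, type I receptors, type II receptors and ID genes; the vertical axes differ. The type II stack stays at 14.0 to 16.5 CPM per kb over all libraries while the type I stack goes from 56.5 to 60.7 in controls to 25.9 to 27.5 in knockdown.

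All 10 receptor genes were tested, of which 4 rose, 5 fell and BMPR2 was not called. Over all tested genes, 39.4% rose and 37.7% fell. The signalling receptors TGFBR1 and TGFBR2 fell and the co-receptor TGFBR3 rose. TGFBR1 (chromosome 9, 99104038 to 99154192), the type I kinase for TGF-beta, read 259.6, 267, 243 and 256 CPM in controls and 81.8, 86.4, 78.6 and 81.5 CPM in knockdown (log2 fold change -1.64, SE 0.040, adjusted p = 2.47e-22). TGFBR2, the type II kinase that binds TGF-beta first, read 18.7, 21.0, 19.8 and 20.2 CPM against 10.7, 9.22, 10.4 and 8.61 CPM (log2 fold change -1.04, SE 0.080). Neither overlapped between groups, and 32% and 48.7% of the control means remained. TGFBR3 (betaglycan, chromosome 1, 91680343 to 91906335), a co-receptor that presents TGFB2 and binds inhibin, went the other way, with 1.42, 1.63, 1.85 and 1.29 CPM in controls and 75, 83.1, 80.9 and 78.6 CPM in knockdown. This was a 51.2-fold rise (log2 fold change 5.68, SE 0.12, adjusted p = 4.28e-27), where its 50 nearest tested genes had a median of 0.23.

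Of the activin and BMP receptors, ACVR1, a BMP type I receptor, read 15.6, 15.4, 16.5 and 14.0 CPM in controls and 8.37, 6.43, 6.26 and 6.06 CPM in knockdown, a fall (log2 fold change -1.17, SE 0.12). BMPR1B, another BMP type I receptor, fell more steeply, from 6.87, 8.76, 6.17 and 7.58 CPM to 0.850, 0.860, 0.407 and 0.833 CPM (log2 fold change -3.28, SE 0.27, adjusted p = 5.58e-15). BMPR1A, the third of that kind, rose modestly from 35.9, 37.3, 31.9 and 35.4 CPM to 48.1, 47.6, 46.8 and 48.4 CPM (log2 fold change 0.44, SE 0.050). The 3 BMP type I receptors thus moved in different directions, with no overlap between groups for any of them. ACVR1B, the activin type I receptor, was at 41.2, 44.8, 45.0 and 40.3 CPM in controls and 35.7, 35.1, 34.4 and 38.5 CPM in knockdown (log2 fold change -0.25, SE 0.054). The activin type II receptors rose: ACVR2B stood at 11.9, 11.3, 11.7 and 11.9 CPM and then at 40.6, 50, 42.7 and 41.1 CPM (log2 fold change 1.90, SE 0.072). ACVR2A was at 7.65, 7.35, 7.41 and 8.10 CPM in controls and 11.8, 12.4, 11.8 and 11.1 CPM in knockdown (log2 fold change 0.62, SE 0.045), and it shares 430 bp with ORC4 on the opposite strand. BMPR2, the BMP type II receptor, was at 88.9, 86.9, 85.3 and 85.5 CPM against 76.2, 92.5, 84.7 and 82.4 CPM, with overlapping groups (log2 fold change -0.05, SE 0.059, adjusted p = 0.388).

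On the per-length scale TGFBR1 led the type I receptors in both groups, at 67.6% of their sum in controls and 46.5% in knockdown, and BMPR2 led the type II receptors at 53.3% and 48.3%. Promoters of the receptors with the largest rise and the largest fall follow (TGFBR3, chr1:91886102-91886401, minus strand; BMPR1B, chr4:94757705-94758004, plus strand, the one of 3 starts nearest the GENCODE gene start; GRCh38.p14, RefSeq). The TGFBR3 window is the only start listed for it and lies inside the longer GENCODE gene. They hold 71.7% and 63.3% G and C, against 56.0% for TGFB3.
TGFBR3: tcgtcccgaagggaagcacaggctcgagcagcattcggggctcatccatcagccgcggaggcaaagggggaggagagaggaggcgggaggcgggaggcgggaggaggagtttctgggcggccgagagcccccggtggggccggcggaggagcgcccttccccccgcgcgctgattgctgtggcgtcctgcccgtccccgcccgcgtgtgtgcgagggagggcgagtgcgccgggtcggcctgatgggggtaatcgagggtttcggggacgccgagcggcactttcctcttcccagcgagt
BMPR1B: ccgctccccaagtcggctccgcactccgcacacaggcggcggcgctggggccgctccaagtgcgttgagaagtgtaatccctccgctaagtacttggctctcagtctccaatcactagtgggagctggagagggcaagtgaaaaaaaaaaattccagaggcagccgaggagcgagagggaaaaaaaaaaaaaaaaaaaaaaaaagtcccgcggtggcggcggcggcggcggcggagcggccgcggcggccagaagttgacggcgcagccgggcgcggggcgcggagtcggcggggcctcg

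Of the 7 SMAD genes, 3 rose, 2 fell, and SMAD3 and SMAD9 were not called, where 77.1% of all tested genes were called. SMAD1, a transducer of BMP signals, read 58.1, 59.7, 58.2 and 57.7 CPM in controls and 16.3, 18.1, 17.1 and 18.0 CPM in knockdown (log2 fold change -1.75, SE 0.036, adjusted p = 9.62e-21). SMAD6, the inhibitory SMAD that acts mainly on BMP signals, read 29.2, 31.8, 32.4 and 33.1 CPM against 11.1, 11.6, 10.5 and 10.6 CPM (log2 fold change -1.53, SE 0.052). Both fell with clear separation, to 29.7% and 34.6% of control. SMAD7, the general inhibitory SMAD, rose from 8.43, 9.99, 9.50 and 10.4 CPM to 13.1, 13.4, 13 and 13.7 CPM (log2 fold change 0.47, SE 0.069). SMAD4, the partner shared by both branches, read 21.1, 19.9, 20.7 and 17.9 CPM in controls and 50.4, 53.5, 49.0 and 51.2 CPM in knockdown (log2 fold change 1.36, SE 0.059, adjusted p = 1.41e-17). The gene rose 2.56-fold with no overlap. The TGF-beta-side SMADs differed little: SMAD3 was at 31.6, 33.6, 35.2 and 31.8 CPM and 31.2, 32.1, 31.0 and 33.8 CPM, with overlapping groups (log2 fold change -0.04, SE 0.047, adjusted p = 0.438). SMAD2 was at 84.0, 88.0, 81.5 and 85.2 CPM in controls and 87.3, 94.9, 89.2 and 92.3 CPM in knockdown, also overlapping (log2 fold change 0.10, SE 0.035, adjusted p = 0.0236). That call was lost when 1 of 5 libraries was left out, as given with the processing alternatives, and its 50 nearest genes had a median of 0.11. SMAD9 had 9 to 18 counts in controls and 8 to 15 in knockdown.

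Extracellular antagonists bind the ligands and keep them from their receptors. FSTL3, which binds activins, GDF11 and related ligands, read 11.2, 10.4, 11.6 and 11.2 CPM in controls and 71.0, 65.9, 70.4 and 69.5 CPM in knockdown. It rose 6.23-fold with no overlap (log2 fold change 2.64, SE 0.042, adjusted p = 8.04e-24), where its neighbours had a median of -0.35. CHRD (chordin, a BMP antagonist that BMP1 and related proteases cleave) rose from 3, 6, 3 and 5 counts to 28, 30, 22 and 22 counts, without overlap (log2 fold change 2.53, SE 0.22). FSTL1, a secreted BMP-binding glycoprotein, rose from 20.6 ± 0.679 to 28.0 ± 0.997 CPM (log2 fold change 0.44; SD, n = 4 each). BAMBI, a receptor-like protein without a kinase that blocks type I receptors, fell from 33.6 ± 1.83 to 23.0 ± 0.654 CPM (log2 fold change -0.54; SD, n = 4 each). Noggin (NOG), gremlin (GREM1) and follistatin (FST) had at most 3 counts in any library. At this depth no difference in these antagonists was detectable.

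Of the corepressors and ubiquitin ligases, TGIF2, a homeodomain corepressor of TGF-beta-responsive genes, rose and the other 5 fell by smaller amounts. Over all tested genes, 39.4% rose and 37.7% fell. TGIF2 stood at 24.4, 23.2, 23.3 and 23.8 CPM in controls and at 85.6, 89.5, 81.4 and 92.1 CPM in knockdown, a 3.68-fold rise with no overlap (log2 fold change 1.88, SE 0.042). Its relative TGIF1 changed from 45.6 ± 0.553 to 41.4 ± 1.05 CPM (log2 fold change -0.14, adjusted p = 0.00649; SD, n = 4 each). SKIL (SnoN), a SMAD corepressor that TGF-beta itself induces, read 96.0, 96.2, 82.7 and 89.8 CPM in controls and 45.3, 47.6, 44.2 and 43.4 CPM in knockdown (log2 fold change -1.01, SE 0.059, adjusted p = 1.04e-15). Its 50 nearest genes had a median of -0.41, and with the regional shift taken out SKIL was at -0.61. SKI, its homologue, was at 106 ± 4.61 and 91.1 ± 6.37 CPM (log2 fold change -0.22), and SMURF1, a ligase for SMADs and receptors, at 75.1 ± 2.41 and 56.8 ± 1.15 CPM (log2 fold change -0.40; SD, n = 4 each). SMURF2 had overlapping groups (20.2 ± 1.44 and 17.6 ± 1.12 CPM; log2 fold change -0.19, adjusted p = 0.0107; SD, n = 4 each). The neighbours of SKI and SMURF2 had medians of -0.25 and -0.19. SMURF1 shares 735 bp with TRRAP on the opposite strand (4417 counts on average) and SMURF2 167 bp with CEP95 (618 counts). The calls of TGIF1 and SMURF2 were lost under some scalings, as given with the processing alternatives.

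**Figure D3:**
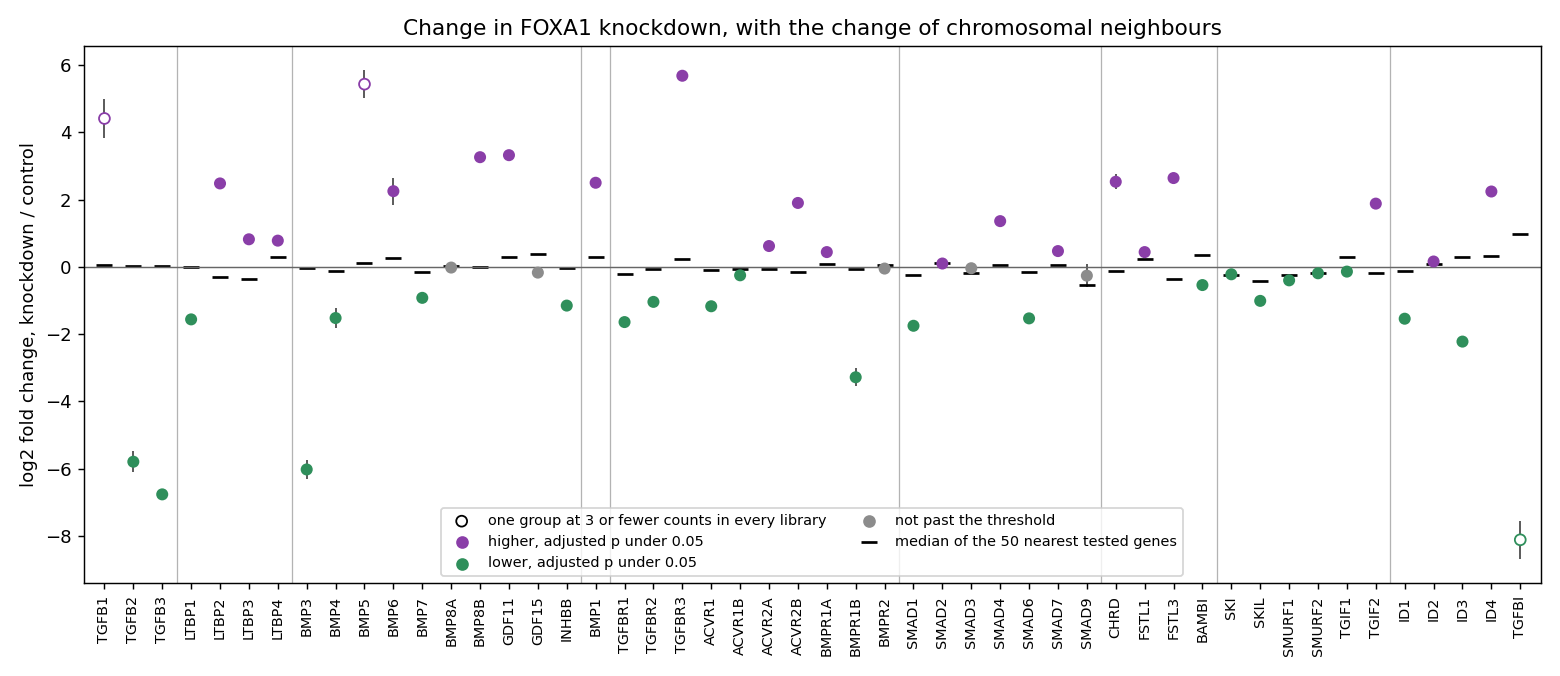
Log2 fold change, knockdown over control, of the 50 tested genes by class (points; bars, SE from the spread of log2 CPM in 4 libraries a group), with the median of the 50 nearest tested genes as a dash. Open points had 3 or fewer counts in every library of one group; TGFBI lies at -8.11 where its neighbours are at 0.97.

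Among target genes, ID1 and ID3 fell, ID4 rose, and ID2 moved little. The ID proteins are helix-loop-helix factors that lack a DNA-binding domain and hold partner factors off DNA. ID3 (chromosome 1, 23557918 to 23559794), the most abundant in controls, read 168, 160.5, 175 and 169 CPM in controls and 36.3, 33.8, 36.4 and 38.1 CPM in knockdown (log2 fold change -2.22, SE 0.043, adjusted p = 3.92e-24). ID1 (chromosome 20, 31605283 to 31606515) read 66.8, 68.4, 71.8 and 76.0 CPM against 26.4, 23.0, 21.9 and 26.1 CPM (log2 fold change -1.54, SE 0.078, adjusted p = 2.50e-17). Both groups of 4 were fully apart, at 21.5% and 34.5% of control. ID4 (chromosome 6, 19837386 to 19840684) rose from 2.20, 2.45, 1.90 and 2.33 CPM to 11.3, 9.26, 10.8 and 10.5 CPM (log2 fold change 2.24, SE 0.10). ID2 was at 56.6, 58.9, 56.9 and 58.3 CPM in controls and 64.9, 58.8, 65.4 and 68.4 CPM in knockdown, with overlap in 1 library (log2 fold change 0.16, SE 0.048, adjusted p = 0.00351). Per kilobase the 4 genes summed to 214 to 227 CPM in controls and 78.5 to 89.6 CPM in knockdown, and the leading member changed from ID3 (60.8% of the sum) to ID2 (37.2%).

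The promoters of the 4 ID genes are given to set the genes that fell (ID1, ID3) beside those that did not (ID2, ID4). They cover ID1 at chr20:31605039-31605338, ID2 at chr2:8681806-8682105, ID3 at chr1:23559452-23559751 (minus strand) and ID4 at chr6:19837120-19837419 (GRCh38.p14, RefSeq). Capitals mark matches on either strand to TGTTTAC or TGTTTGC (forkhead), CAGACA (SMAD), GGCGCC (BMP response) or TATAA, the last searched after the sequences had been read.
ID1: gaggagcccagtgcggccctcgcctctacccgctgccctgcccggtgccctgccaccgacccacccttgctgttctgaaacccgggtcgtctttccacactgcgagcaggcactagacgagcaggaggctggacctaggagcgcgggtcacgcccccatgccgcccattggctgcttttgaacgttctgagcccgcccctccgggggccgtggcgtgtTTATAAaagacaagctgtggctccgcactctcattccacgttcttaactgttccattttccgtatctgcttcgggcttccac
ID2: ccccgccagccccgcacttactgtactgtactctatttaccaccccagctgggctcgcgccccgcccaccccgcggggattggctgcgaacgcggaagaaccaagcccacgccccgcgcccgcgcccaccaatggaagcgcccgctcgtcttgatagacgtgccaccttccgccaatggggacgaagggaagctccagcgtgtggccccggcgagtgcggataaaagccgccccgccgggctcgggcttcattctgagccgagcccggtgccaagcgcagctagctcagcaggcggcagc
ID3: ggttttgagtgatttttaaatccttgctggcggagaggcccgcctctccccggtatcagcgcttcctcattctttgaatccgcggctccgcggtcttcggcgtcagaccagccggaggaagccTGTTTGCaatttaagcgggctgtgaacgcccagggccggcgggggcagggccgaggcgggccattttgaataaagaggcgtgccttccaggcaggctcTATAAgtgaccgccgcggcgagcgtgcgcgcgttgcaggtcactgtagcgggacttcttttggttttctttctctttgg
ID4: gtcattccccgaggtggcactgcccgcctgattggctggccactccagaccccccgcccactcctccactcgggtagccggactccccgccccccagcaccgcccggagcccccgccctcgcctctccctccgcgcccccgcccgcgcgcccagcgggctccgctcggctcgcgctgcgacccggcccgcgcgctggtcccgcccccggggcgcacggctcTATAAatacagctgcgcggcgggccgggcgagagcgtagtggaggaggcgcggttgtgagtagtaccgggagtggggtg

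TATAA lay 31, 29 and 29 bases before the start in ID1, ID3 and ID4, overlapping its own reverse match in ID1. It was not in the ID2 window, and 20.4% of the 35116 RefSeq promoter windows of this length held it. TGTTTGC lay 127 bases before the start of ID3 and is held by 3.89% of all windows. Of the 49 pathway genes with a promoter in the RefSeq table, 5 held TGTTTGC (ID3, LTBP1, LTBP4, SMAD6 and TGFB1) and 1 held TGTTTAC (GDF15, 3.42% of all windows). CAGACA was held by 14 of the 49 genes and by 16.9% of all windows, and GGCGCC by 20 of the 49 and 19.2% of windows. A gene could be counted through any of its starts, so the gene counts are not shares of windows. None of the 5 motifs was in the windows shown for TGFB3, TGFBR3, BMPR1B or ID2, which says only that these letters are absent there. Windows at other listed starts, not shown, held TATAA for TGFB3 and CAGACA for BMPR1B.

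TGFBI (chromosome 5, 136028895 to 136063818), a secreted matrix protein named for its induction by TGF-beta, had 232, 226, 244 and 256 counts in controls and 0, 1, 0 and 2 counts in knockdown. The ratio of summed counts was 323 in favour of the controls, with an exact 95% interval of 110.2 to 1569.8 (log2 fold change -8.11, SE 0.57, adjusted p = 4.01e-20). With so few reads the fitted value moved with 1 library, to -9.06 without knockdown replicate 4, and over the libraries left out in turn it ran to -7.72. With the regional shift removed it was -9.02. The gene lies where its 50 nearest tested genes were raised, with a median log2 fold change of 0.97.

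Each called gene was also set beside its neighbours on the chromosome. The neighbour medians of the 45 called genes ran from -0.41 to 0.97. Of the 45, 42 had a larger change than the median of their neighbours, and 15 moved against that median. A median of 50 genes varies less than a single gene, and the 45 were picked as called, so these counts are descriptive. The same shares over all tested genes were not computed. With the regional shift removed, SMAD2 was at -0.0097, SKI at 0.03, SMURF2 at -0.0043 and ID2 at 0.07, all with an adjusted p above the threshold (0.836, 0.630, 0.956 and 0.195). GDF15 then passed it at -0.56 (adjusted p = 0.00535), as did SMAD3 at 0.13 (adjusted p = 0.0234). FSTL1 was at 0.21, SMURF1 at -0.18, LTBP4 at 0.49, TGIF1 at -0.43 and BAMBI at -0.90.

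Other genes of the pathway, 82 symbols outside the 55, were taken from a separate list by role. The table held 76 of them, TAB2 under 2 identifiers, and 50 of these rows were tested: 40 (80.0%) were called, near the 77.1% of all tested genes, with 22 higher and 18 lower. Among TGF-beta target genes 8 of 12 tested fell and 3 rose, where 37.7% and 39.4% of all tested genes did, with a median log2 fold change of -1.81 beside 0.02 over all. Of these 12, 9 reached the filter's level in both groups, 1 only in controls and 2, TIMP1 among them, only in knockdown. Genes that pass through 1 group alone had to differ, so these counts are descriptive. PMEPA1, a membrane protein induced by TGF-beta, was at 421, 419, 435 and 418 CPM in controls and 15.8, 17.3, 16.4 and 16.2 CPM in knockdown (log2 fold change -4.68, SE 0.031, adjusted p = 6.27e-31). CDKN1A (p21), a cell cycle inhibitor, fell from 8.35 ± 1.21 to 1.76 ± 0.253 CPM (log2 fold change -2.24; SD, n = 4 each). TIMP1, a protease inhibitor, rose from 0.501 ± 0.165 to 10.1 ± 0.996 CPM and SNAI1, an epithelial-mesenchymal transition factor, from 2.78 ± 0.504 to 6.11 ± 0.267 CPM (SD, n = 4 each). The TGF-beta targets moved in both directions, but more fell (8) than rose (3), and the named genes were taken from each direction.

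Of 6 tested genes for further ligands and ligand processing, 3 rose and 2 fell, where 39.4% and 37.7% of all tested genes did. INHA, the alpha chain that turns activin beta chains into inhibin, rose from 2.43, 1.91, 1.99 and 1.55 CPM to 138, 134, 136 and 139.9 CPM, or 69.7-fold (log2 fold change 6.12, SE 0.13, adjusted p = 7.05e-29). Per kilobase, INHA was at 1.34 ± 0.245 and INHBB at 67.7 ± 1.73 CPM in controls, and at 93.5 ± 1.65 and 30.6 ± 0.353 CPM in knockdown (SD, n = 4 each), so their order was reversed. ITGB6 and ITGB8 encode integrin chains that release active TGF-beta. ITGB6 fell from 57.6 ± 5.47 to 8.69 ± 0.248 CPM (log2 fold change -2.73) and ITGB8 rose from 1.92 ± 0.191 to 8.71 ± 0.742 CPM (log2 fold change 2.18; SD, n = 4 each). THBS1, an activator of latent TGF-beta, fell from 55.1 ± 2.09 to 28.8 ± 0.584 CPM (SD, n = 4 each).

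All 7 tested genes among further antagonists and extracellular modulators were called, 6 higher and 1 lower, where 77.1% of all tested genes were called, 39.4% higher and 37.7% lower. HTRA1, a secreted protease that cleaves TGF-beta family proteins, was without a count in any control. It reached 8.74 ± 0.540 CPM after knockdown (SD, n = 4). Against a floor of 3 counts per library it was at least 64.1-fold higher. CRIM1, which binds BMPs, rose from 84.9 ± 2.57 to 202 ± 10.8 CPM and TWSG1, a chordin partner, fell from 31.6 ± 2.12 to 16.9 ± 1.07 CPM (SD, n = 4 each). Of the 7, 4 passed the filter through knockdown libraries alone. Of 17 tested SMAD partners and regulators, 7 rose and 5 fell, mostly by little: DAB2, an endocytic adaptor, had a log2 fold change of 2.00 and TRIM33 of 0.61, while TAB2 was at -0.77 and WWP1 at -0.68. Of 4 further receptors and co-receptors tested, NEO1, a receptor for repulsive guidance molecules, was called (log2 fold change -0.30, where its neighbours had a median of -0.26). Of 4 BMP targets, HEY1 (1.66 ± 0.149 to 17.2 ± 0.491 CPM), MSX2 (42.3 ± 0.994 to 123 ± 4.56 CPM) and GATA2 (161 ± 6.58 to 274 ± 9.59 CPM, named to complete the count) rose and HES1 fell (54.1 ± 3.67 to 31.6 ± 3.48 CPM; SD, n = 4 each), so that HEY1, MSX2 and GATA2 moved opposite to ID1 and ID3. The neighbours of MSX2 had a median of 0.67, beside its own log2 fold change of 1.55.

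**Figure D4:**
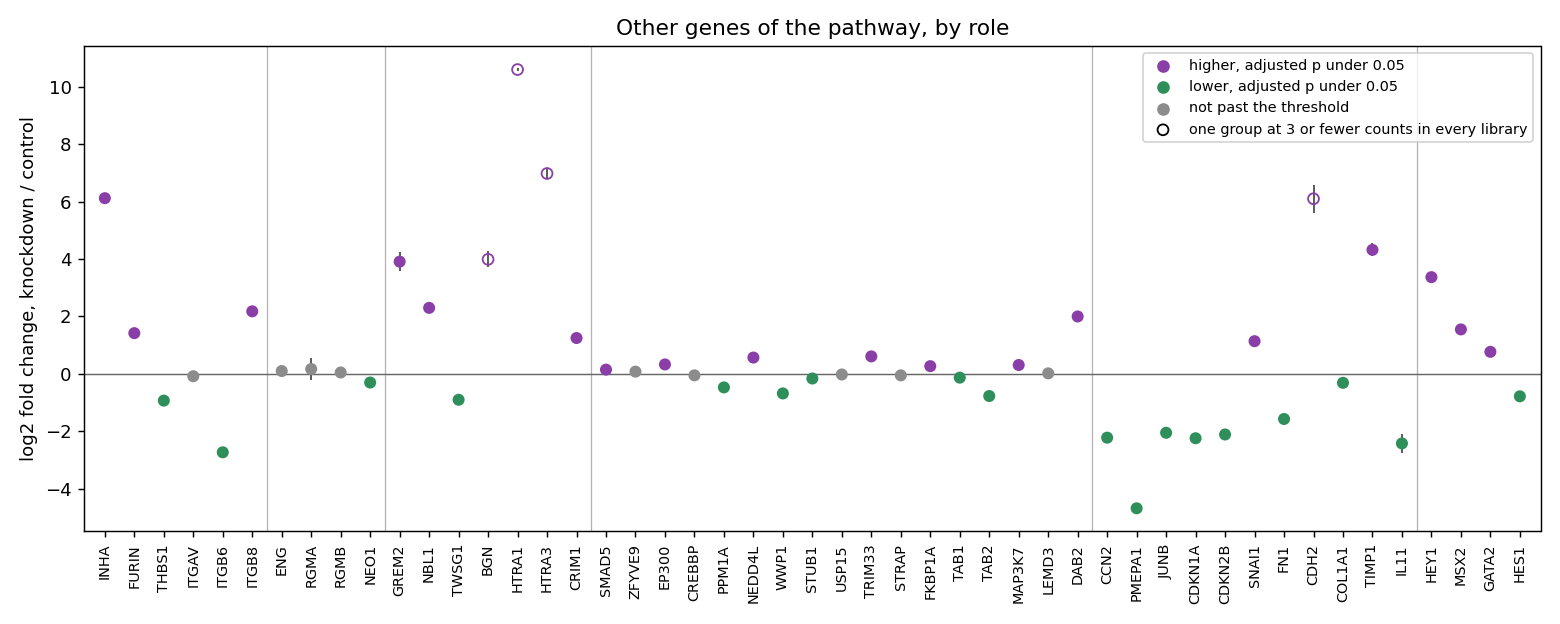
Log2 fold change, knockdown over control, of 49 of the 50 tested rows of the wider pathway list by role (ligands and processing, receptors, antagonists, SMAD partners, TGF-beta targets, BMP targets; bars, SE). Open points had 3 or fewer counts in every library of one group, where the fitted value depends on the prior count and is no bound; PMEPA1 at -4.68 and INHA at 6.12 stand far from 0 with reads in both groups.

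For single genes, an exact two-sided permutation test over the 70 divisions of 8 libraries into 4 and 4 gave p = 0.0286 for each gene without overlap, the smallest value this design allows. Leaving out control replicate 3 gave 44 called genes in place of 45, SMAD2 being the loss.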

How the data were processed

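RNA from SKBR3 cells was sequenced as paired-end reads of 101 bp, per the labels. The authors deposited raw counts per gene, whole numbers under versioned Ensembl identifiers with a symbol column. The submitters' processing notes name FastQC, Salmon 1.9, DESeq2 3.16 and the build hg38 with no roles; annotation release and strand are not given in the sources used here.

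Groups came from titles. Counts were analysed in R 4.3.3 with edgeR 4.0.16: filterByExpr (minimum 10 counts, total 15; 16430 of 30434 genes kept), TMM scaling (factors 0.965 to 1.04), the robust quasi-likelihood test and Benjamini-Hochberg adjustment over all genes tested, threshold 0.05. CPM values are counts relative to the TMM-scaled library total, from edgeR's cpm function. Standard errors come from the spread of log2 CPM, with 0.5 added to each count. Positions, and transcript lengths (the longest protein-coding basic transcript), come from GENCODE 29 on GRCh38, matched to 29358 identifiers. Intervals and floors cover counting error only.

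The genes and lists were chosen with earlier results of these data known. Values per library are given for genes called with at least a 2-fold change and for receptors and SMADs, as counts where these are low. BMP7 and ID2 were added after their values were seen. From the wider list, up to 2 rises and 2 falls per role with a mean of at least 50 counts are named. Alternatives comprised other scalings (RLE, upper quartile, library size alone), other filters, DESeq2 1.42.0, limma 3.58.1 voom, a replicate block, removal of the regional shift (the median of the 50 nearest tested genes) and leaving out each library. In the wider list and the marker lists, 1 gene each is not reported here. Python 3.11.15 was used for tables and figures.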

Additional observations from a re-analysis of the deposited data

Results flagged for a closer look

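A library far from the other 3 of its group was listed where its gap to the closest one, as a share of the whole range of the group, passed the 95% critical value of Dixon. Over 102 groups (50 pathway genes and FOXA1 in both conditions) this gave 7 cases, where chance gives about 5.10. In control, BMP5 was at 0.0458 CPM (1 count) in replicate 1 and 0 in the others, GDF11 at 4.18 CPM in replicate 2 against 3.62 to 3.70, GDF15 at 2.33 CPM in replicate 4 against 1.73 to 1.80, and INHBB at 225 CPM in replicate 3 against 213 to 215. In knockdown, BMP4 was at 0.340 CPM (8 counts) in replicate 1 against 0.139 to 0.164, ACVR1 at 8.37 CPM in replicate 1 against 6.06 to 6.43, and BMPR1B low at 0.407 CPM (8 counts) in replicate 3 against 0.833 to 0.860. Leaving out each library in turn kept GDF11 between 3.29 and 3.37, INHBB between -1.16 and -1.13, ACVR1 between -1.29 and -1.12, BMPR1B between -3.36 and -3.11 and BMP4 between -1.91 and -1.39 on the log2 scale, and BMP5 rested on a single control count, with 5.12 to 7.03.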

How the results depend on the processing

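Over 17 alternatives, 40 of the 50 tested pathway genes kept direction and call in every one that could test them, and 813 of 841 values did. The number called was 45 with RLE scaling, DESeq2, voom and the replicate block, 43 with upper-quartile scaling, library size only or the regional shift removed, 39 of 41 tested at a mean of at least 50 counts, 46 without a filter, and 44 to 46 with a library left out. Counts of higher and lower genes then ran from 21 to 22 and 23 to 24, those of the wider list from 40 to 41, those of all genes from 12498 to 12865, and the log2 fold change of FOXA1 from -5.64 to -5.55. The replicate block changed no call among the 50 pathway genes, and gave 39 calls in the wider list and 12453 over all genes. Departures from the group means correlated at 0.023, 0.052, -0.037 and -0.011 between same-numbered libraries. No pairing by number was detectable, which does not exclude one. Library size only moved the median of all genes from 0.019 to 0.103.

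Signs turned for 6 genes. BMP8A went to 0.04 (upper-quartile), 0.06 (library size only) and to 0.05, 0.00022, 0.0034 and 0.04 without control replicate 4 or knockdown replicates 1, 3 and 4 (range -0.12 to 0.05 with a library left out). BMPR2 went to 0.01, 0.04 and, without knockdown replicate 1, to 0.0036 (range -0.10 to 0.0036), and SMAD3 to 0.01, 0.04 and, with the regional shift removed, to 0.13. That removal also turned SMAD2 (-0.0097), SMAD9 (0.26) and SKI (0.03). The call of SMAD2 was lost without control replicates 1, 3 or 4 or knockdown replicates 2 or 4 (adjusted p 0.0550 to 0.0869), that of SMURF2 with upper-quartile (0.0717), library size only (0.145) or without knockdown replicate 1 (0.0588), and that of TGIF1 with the same scalings (0.108 and 0.251). The cause was not tested. Genes at or under about 20 counts per library are limited by depth. In both groups these were TGFB1, BMP4, BMP5, BMP6, BMP8A and SMAD9. In controls alone they were LTBP2, BMP8B and CHRD, and in knockdown alone TGFB2, BMP3, BMPR1B and TGFBI.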
